A study of Mus musculus with 6 samples.

Results

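The collagen genes were described by their histone H4 lysine 5 acetylation (H4K5ac) in the mouse hippocampus. The 38 genes are the listed autosomal collagen genes, out of 21281 autosomal protein-coding genes of the mm9 annotation, and they were taken by name, not by any measured value. All 38 were found in the annotation, and reads were counted in the gene body of each, from its first transcription start site (TSS) to its last transcription termination site (TTS), and in its promoter, the 2 kb upstream of the TSS.

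Hippocampal chromatin of C57/BL6 mice, given an age of 6 months in the labels, was sequenced in 6 libraries. Mice trained by contextual fear conditioning, in which a foot shock is paired with a context, form the FC group, and mice that met the context without a shock form the control group (CON). For each group the mark was precipitated in a library called H4K5ac-ChIP, nonspecific antibody was used in a library called IgG-IP, and unprecipitated genomic DNA was sequenced as input. Each group and antibody has 1 library, so the variation among mice is not measured and conditions were not tested. Every 95% interval below covers counting error only and compares libraries, not conditions. Whole hippocampus was used, and a change in the share of cells that carry the mark cannot be told apart from a change within cells.

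Collagens are extracellular proteins built on a triple helix of repeated glycine-led triplets. Fibrillar collagens form the fibres of skin, bone and cartilage, collagen IV forms the network of basement membranes, which in the brain line blood vessels and the pial surface, and fibril-associated, beaded filament, transmembrane and multiplexin collagens decorate or connect these structures. H4K5ac is a histone mark found at transcribed genes, and most collagens of the brain are made by vascular, meningeal and some glial cells rather than by neurons. Collagen II, the product of Col2a1, is the main fibre of cartilage and of the vitreous of the eye.

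The Col2a1 gene (ENSMUSG00000022483.9) lies on the minus strand of mm9 at chr15:97806033-97835155 and spans 29.1 kb. It held the only collagen region in which the H4K5ac-ChIP libraries still differed at the stricter threshold described below, 11805 to 12304 bp downstream of the TSS and intronic in every annotated transcript. The best 300 bp of that region, chr15:97822901-97823200, are shown because the difference in reads was largest there. The 250 bp upstream of the TSS, chr15:97835156-97835405, are shown because the Col2a1 promoter shared with that of Col14a1 the highest ratio of FC to CON among the 38 promoters. Both are printed 5′ to 3′ on the gene's strand, and capitals in upstream sequences mark the GC box GGGCGG, the CCAAT box CCAAT and the TATA box TATAAA, each searched on both strands.
Col2a1 intronic region: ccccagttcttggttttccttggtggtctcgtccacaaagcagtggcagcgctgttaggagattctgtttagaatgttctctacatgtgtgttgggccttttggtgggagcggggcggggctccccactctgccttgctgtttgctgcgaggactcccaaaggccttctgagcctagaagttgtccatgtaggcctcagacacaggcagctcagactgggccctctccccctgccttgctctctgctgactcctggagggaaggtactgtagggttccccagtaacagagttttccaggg
Col2a1 upstream: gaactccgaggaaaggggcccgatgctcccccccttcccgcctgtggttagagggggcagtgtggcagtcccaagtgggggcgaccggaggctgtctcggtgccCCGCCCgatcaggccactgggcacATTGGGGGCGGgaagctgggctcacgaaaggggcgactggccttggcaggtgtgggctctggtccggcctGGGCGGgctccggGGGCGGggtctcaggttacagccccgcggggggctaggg

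The upstream windows of the other promoters with a called difference are shown for comparison. Col8a1 and Col14a1 had more H4K5ac-ChIP reads in FC, and Col18a1 fewer. They lie at chr16:57754851-57755100 on the minus strand, at chr15:55139055-55139304 on the plus strand and at chr10:76629294-76629543 on the minus strand.
Col8a1 upstream: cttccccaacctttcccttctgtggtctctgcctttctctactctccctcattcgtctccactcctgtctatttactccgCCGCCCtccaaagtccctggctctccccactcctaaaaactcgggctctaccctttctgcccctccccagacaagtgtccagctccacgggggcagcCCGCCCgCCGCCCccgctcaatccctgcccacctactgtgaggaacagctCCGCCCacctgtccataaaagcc
Col14a1 upstream: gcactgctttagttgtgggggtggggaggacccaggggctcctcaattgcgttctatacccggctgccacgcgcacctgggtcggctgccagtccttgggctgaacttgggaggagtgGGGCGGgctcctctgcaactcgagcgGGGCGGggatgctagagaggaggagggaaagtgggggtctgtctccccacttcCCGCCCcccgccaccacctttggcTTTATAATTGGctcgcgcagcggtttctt
Col18a1 upstream: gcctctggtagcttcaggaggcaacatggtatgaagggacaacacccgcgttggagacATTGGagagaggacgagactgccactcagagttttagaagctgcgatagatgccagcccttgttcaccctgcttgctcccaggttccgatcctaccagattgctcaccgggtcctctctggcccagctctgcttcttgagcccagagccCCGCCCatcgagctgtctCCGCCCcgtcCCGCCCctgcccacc
All 4 windows hold a GC box, with 4 matches in Col2a1, 4 in Col8a1, 3 in Col14a1 and 3 in Col18a1, so the letters do not separate the promoters higher in FC from the one that was lower. Of the 38 collagen promoters 18 (47.4%) held a GC box, against 39.9% of the 21281 promoters of the same length. A CCAAT box was present in 15 (39.5%, against 34.7%) and a TATA box in 5 (13.2%, against 12.4%). The letters were counted as matches only.

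Col2a1 was examined first. Over its gene body 583 (FC) and 532 (CON) H4K5ac-ChIP reads were counted, 118 and 163 IgG-IP reads, and 990 and 459 input reads. Scaled to gene length and library size (RPKM) this was 0.633 in FC and 0.508 in CON for H4K5ac-ChIP, 0.278 and 0.339 for IgG-IP, and 0.744 and 0.444 for input. H4K5ac-ChIP was thus above IgG-IP in both groups, and input was the highest library in FC but not in CON.

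On a log2 scale the gene body of Col2a1 was above IgG-IP by 1.19 in FC (95% interval 0.90 to 1.48) and by 0.58 in CON (0.33 to 0.84). Against input the values were -0.23 in FC and 0.19 in CON. Its log2 ratio over IgG-IP stood at percentile 76.7 of all tested genes in FC and 51.1 in CON. Averaged over the groups, Col2a1 ranked 9 of the 38 collagens.

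Between the groups, the H4K5ac-ChIP density of the Col2a1 body was higher in FC by 0.32 on the log2 scale (0.15 to 0.49). The IgG-IP libraries differed by -0.29 (-0.64 to 0.07) and the input libraries by 0.75 (0.58 to 0.91). The input difference was thus larger than the H4K5ac-ChIP difference over the gene body, and after subtraction of the input ratio the Col2a1 value was -0.43 (-0.66 to -0.19). The GC content of the Col2a1 body is 54.9%, the second highest of the 38. Among genes of the same GC content the H4K5ac-ChIP difference was 0.15 (-0.02 to 0.32).

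The intronic region was chosen by the scan described below because its FC reads exceeded those of CON, so its H4K5ac-ChIP ratio and interval are a description. The 500 bp at chr15:97822851-97823350 had 42 (FC) and 11 (CON) H4K5ac-ChIP reads, while IgG-IP had 2 and 1 reads and input 15 and 11. The log2 ratio of FC over CON was 2.12 (1.14 to 3.23) for H4K5ac-ChIP and 0.08 (-1.14 to 1.35) for input. With 1 read kept per position and strand the reads were 36 and 11, a log2 ratio of 1.95 (0.94 to 3.07), and at most 5 FC reads shared a position. The FC H4K5ac-ChIP library stood alone, and the CON library was at the level of both input libraries. The study named Col2a1 from these same libraries, so this region is not independent evidence for it. Among its genes with more H4K5ac in FC, the study lists the terms collagen and fibrillar collagen as enriched. Those terms were not tested here, and the counts of collagens given below include Col2a1. From a separate conditioning experiment the study also reports higher Col2a1 mRNA in the hippocampus and no significant change in the cerebellum. That is a measure of RNA and not of the mark.

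**Figure D1:**
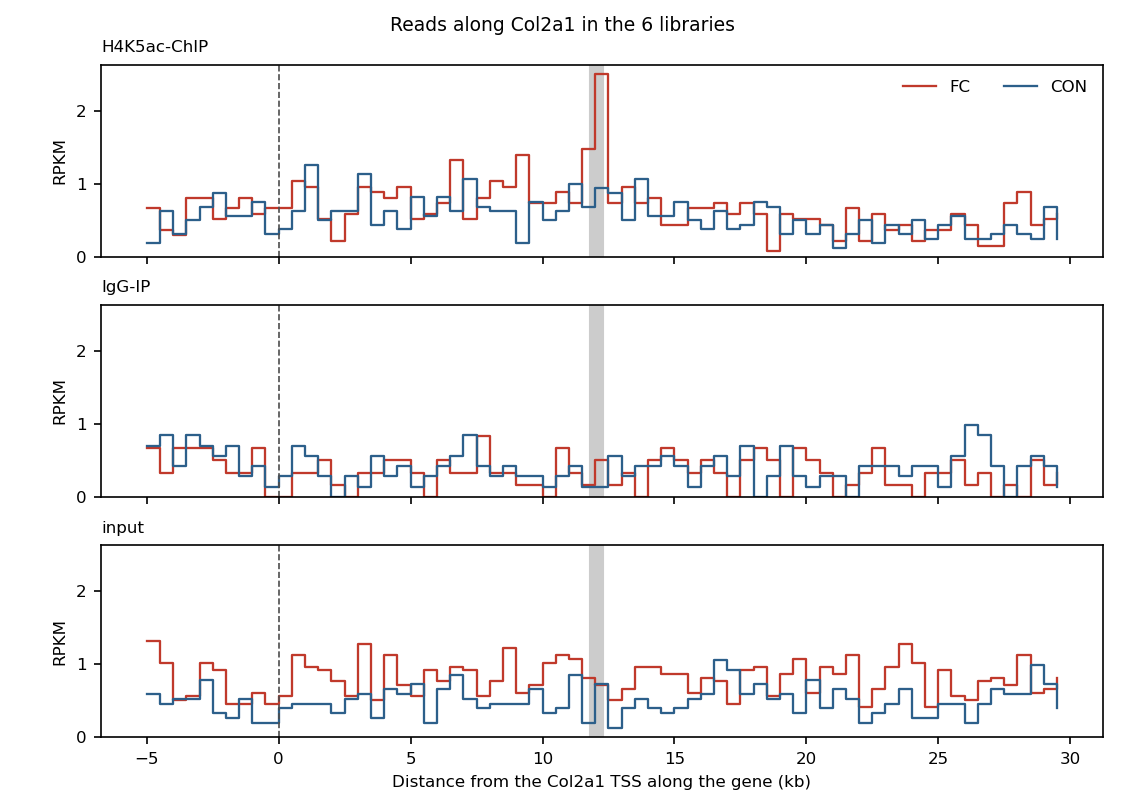
Read density (RPKM, 1 read per position and strand) in steps of 500 bp along Col2a1 by distance from the TSS, with FC in red and CON in blue for H4K5ac-ChIP, IgG-IP and input, the TSS as a dashed line and the called region shaded. The FC H4K5ac-ChIP library peaks in the shaded region, where it held 36 reads against 11 in CON, and the input libraries show no such peak there (13 and 8 reads).

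A scan for windows of 300 bp in which an H4K5ac-ChIP library exceeded the other (Poisson p below 1e-05) called regions in 3 of the 38 collagens as higher in FC, Col2a1, Col27a1 and Col17a1, and in none as higher in CON. Of all tested genes 3.29% held a region higher in FC and 2.44% a region higher in CON. A gene was counted where a region overlapped its body or promoter, so a longer gene offered more windows. Collagen bodies had a median of 109.7 kb against 15.6 kb over all genes, and the shares were not matched for length. At a p below 1e-07 Col2a1 alone of the collagens was left, where 0.367% of all genes were called.

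Col27a1 encodes a fibrillar collagen of cartilage. Its region, at chr4:62936751-62937100, lay 61713 to 62062 bp downstream of the TSS over 54 exonic bases and held 33 (FC) and 15 (CON) H4K5ac-ChIP reads, a log2 ratio of 1.32 (0.40 to 2.31). Input had 16 and 8 reads (0.64, -0.67 to 2.07), and IgG-IP had 4 and 0. The direction of the input libraries was that of the H4K5ac-ChIP libraries, within an interval that includes 0.

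Col17a1 encodes a transmembrane collagen of hemidesmosomes, the anchors of epithelial cells. Its region at chr19:47731401-47731700 held 20 (FC) and 11 (CON) H4K5ac-ChIP reads, a log2 ratio of 1.05 (-0.08 to 2.26) without the 75-bp shift of the scan. Input had 23 and 5 reads there, a log2 ratio of 1.84 (0.41 to 3.59), so the input libraries differed more than the H4K5ac-ChIP libraries, and IgG-IP had 2 and 0 reads. The region was not called when reads were shifted by 50 bp, where a region of Col25a1 was called instead. Its 300 bp on the minus strand, with the 81 exonic bases in capitals, are shown because the region straddles an exon, unlike that of Col2a1.
Col17a1 region: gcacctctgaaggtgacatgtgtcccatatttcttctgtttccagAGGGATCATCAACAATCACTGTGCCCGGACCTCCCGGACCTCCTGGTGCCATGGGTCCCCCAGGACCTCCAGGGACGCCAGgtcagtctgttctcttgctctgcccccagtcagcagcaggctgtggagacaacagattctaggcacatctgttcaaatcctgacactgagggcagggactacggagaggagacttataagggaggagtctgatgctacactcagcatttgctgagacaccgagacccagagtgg
The H4K5ac-ChIP ratios of all 3 regions rest on the reads that chose them, and the input ratios, which the scan did not use, were 0.08 in Col2a1, 0.64 in Col27a1 and 1.84 in Col17a1.

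In the family as a whole, H4K5ac-ChIP over IgG-IP spread over a wide range. The log2 ratio of the gene body ran from -1.61 (Col3a1) to 1.68 (Col16a1) in FC and from -1.09 (Col8a1) to 1.26 (Col16a1) in CON. In both groups the interval lay above 0 for 20 genes and below 0 for 14. The share of all genes with such intervals was not counted, and the width of an interval depends on the reads in the body. The order of the genes was shared by the groups, with Spearman's rho 0.94 between FC and CON over the 38 genes (0.87 over all genes); each point compares the libraries of its own group.

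A gene body was called enriched where H4K5ac-ChIP exceeded IgG-IP by at least 1.5-fold and the interval lay above equality. By this rule 18 of 38 collagens were enriched in FC, against 48.0% of all tested genes, and 11 of 38 in CON, against 44.4%. The share in FC was near the background and that in CON was below it. All 11 of CON were among the 18 of FC. How often the calls of the groups overlapped over all genes was not counted. The median log2 ratio of the collagens was 0.34 in FC and 0.27 in CON, and that of all genes 0.64 and 0.56. Against input the collagen medians were -0.25 in FC and 0.15 in CON, with 0.18 and 0.46 for all genes, so that the family median was below that of all genes with either control. With input as the control 0 of 38 bodies were called in FC (20.5% of all genes) and 8 in CON (38.3%), so the order of the groups depends on the control.

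**Figure D2:**
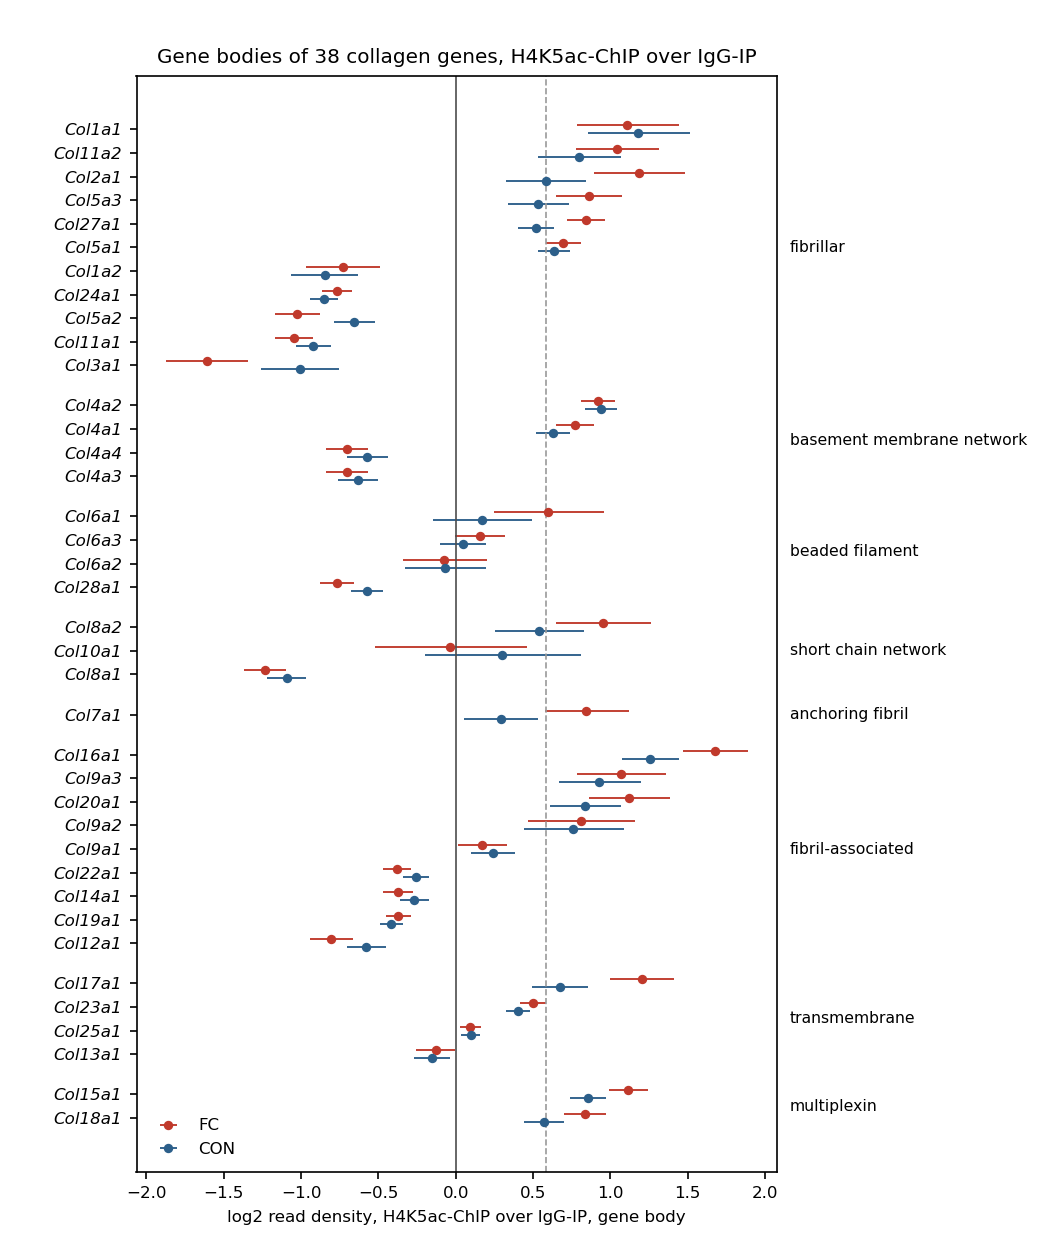
Log2 ratio of read density, H4K5ac-ChIP over IgG-IP, in the gene bodies of the 38 collagens by structural class, with FC in red, CON in blue, bars for the 95% counting interval, a solid line at equality and a dashed line at 1.5-fold. Fibrillar collagens fall on both sides of 0, from Col3a1 (-1.61 in FC) to Col2a1 (1.19 in FC), and no class but the multiplexins and Col7a1 lies wholly above 0 in both groups.

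Fibrillar collagens split into high and low members. Of 11, 6 were enriched in FC and 3 in CON, against 48.0% and 44.4% of all genes. Col1a1, which encodes the α1 chain of collagen I, had 0.837 RPKM of H4K5ac-ChIP in FC and 0.767 in CON against 0.388 and 0.339 of IgG-IP, with log2 ratios of 1.11 (0.79 to 1.44) and 1.18 (0.86 to 1.51). Its partner Col1a2, for the α2 chain, was below IgG-IP in both groups (-0.73 and -0.85). Col1a2 had 40.9% GC and Col1a1 53.9%. Among genes of the same GC content Col1a1 was at -0.20 and 0.14 and Col1a2 at -0.98 and -1.11, so the signs were opposite in both groups only without GC matching.

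Col3a1, for the collagen III of vessel walls and skin, had the lowest mean of the 38. It held 0.167 RPKM of H4K5ac-ChIP in FC and 0.198 in CON, against 0.508 and 0.399 of IgG-IP, and log2 ratios of -1.61 (-1.88 to -1.34) and -1.01 (-1.26 to -0.76). Col5a2 (-1.02 and -0.65), Col11a1 (-1.05 and -0.92) and Col24a1 (-0.77 and -0.85) were also low. Col5a2 and Col11a1 contribute chains to the thin fibrils that nucleate collagen I and II fibres, and their partner chains Col5a1 (0.70 and 0.64) and Col11a2 (1.04 and 0.80) were above IgG-IP in both groups. Among genes of the same GC content the order turned, with Col5a1 at -0.38 and -0.21 and Col11a2 at -0.39 and -0.41, and Col5a2 and Col11a1 above 0. GC content was 35.2% in Col11a1, 35.9% in Col3a1 and 36.2% in Col5a2, against 51.1% in Col5a1 and 56% in Col11a2. Col24a1, with 40.5%, was lower still after GC matching (-1.01 and -1.12).

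The listed genes of collagen IV, the network collagen of basement membranes, lie head to head in pairs. Col4a1 and Col4a2, the chains found in nearly all basement membranes, overlap head to head on chromosome 8, and each promoter lies in the body of the other. Their log2 ratios over IgG-IP were 0.77 (FC) and 0.63 (CON) for Col4a1 and 0.92 and 0.94 for Col4a2, both enriched in both groups. The CON call of Col4a1 was lost with 1 read per position and strand. Col4a3 and Col4a4, chains of the kidney filter, lung and inner ear, start 71 bp apart on chromosome 1. They were below IgG-IP, by -0.70 and -0.63 for Col4a3 and -0.70 and -0.57 for Col4a4. The intervals of the 2 pairs did not overlap in either group, and within the second pair they did. Among genes of the same GC content Col4a1 was at -0.07 and -0.06 and Col4a2 at -0.01 and 0.17, so the first pair no longer stood above 0 in FC, and the second was at -1.02 and -0.92 for Col4a3 and -1.18 and -1.03 for Col4a4. The bases between the starts of Col4a3 and Col4a4, chr1:82583425-82583495 on the plus strand, hold none of the 3 motifs and 2 CpG.
Col4a3 Col4a4 gap: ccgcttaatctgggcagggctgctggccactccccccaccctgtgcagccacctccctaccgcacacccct

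Fibril-associated collagens, which sit on the surface of fibres, held the highest value. Of 9, 4 were enriched in FC and the same 4 in CON, Col16a1, Col9a3, Col20a1 and Col9a2. This was near the share of all genes (48.0% and 44.4%). Col16a1 had 0.923 RPKM of H4K5ac-ChIP in FC and 0.811 in CON, against 0.289 and 0.339 of IgG-IP and 0.68 and 0.416 of input. Its log2 ratios over IgG-IP, 1.68 (1.47 to 1.89) and 1.26 (1.07 to 1.44), stood at percentiles 92.2 and 87.5 of all genes. Among genes of the same GC content the Col16a1 ratios were 0.37 and 0.22. Col9a3, a chain of the collagen IX that coats cartilage fibres, had 1.07 and 0.93, and Col20a1 had 1.12 and 0.84. The remaining 5 members ranged from -0.80 (Col12a1) to 0.17 (Col9a1) in FC. With GC matching the median of the 9 was -0.35 in FC and -0.18 in CON.

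The multiplexins, basement membrane collagens with cleaved endostatin-like ends, were both above IgG-IP. Col15a1 had 0.859 RPKM of H4K5ac-ChIP in FC and 0.76 in CON against 0.396 and 0.42 of IgG-IP, log2 ratios of 1.12 (0.99 to 1.25) and 0.85 (0.74 to 0.97). Col18a1 had 0.84 and 0.57. With GC matching Col15a1 was at 0.18 and 0.08 and Col18a1 at -0.25 and -0.28. Of the 4 transmembrane collagens Col17a1 was enriched in both groups (1.204 and 0.68), and Col13a1 was slightly below IgG-IP (-0.13 and -0.15). The CON call of Col17a1 was lost with 1 read per position and strand. With GC matching all 4 transmembrane collagens were below 0 in CON, the highest at -0.17, and the highest in FC was 0.12. Of the 4 beaded filament collagens Col6a1 alone was called, with 0.60 (0.25 to 0.96) in FC and 0.17 (-0.14 to 0.50) in CON. Its FC call lay just over the 1.5-fold limit and was lost with distinct reads, with a mapping score of at least 20 and without the first 2 kb of the body. With GC matching all 4 beaded filament collagens were below 0, the highest at -0.62 in FC and -0.57 in CON. Among the short chain collagens Col8a2 had 0.95 and 0.54 and Col8a1, the other chain of collagen VIII, -1.24 (-1.37 to -1.10) and -1.09 (-1.22 to -0.97). With GC matching all 3 short chain collagens were below 0, the highest at -0.34 in FC and -0.16 in CON. Col7a1, the anchoring fibril collagen of skin, had 0.85 and 0.29, and -0.57 and -0.82 with GC matching.

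GC content of the gene body moved with these levels. Spearman's rho between GC content and the mean log2 ratio over IgG-IP was 0.83 over the 38 collagens and 0.55 over all genes, and the points share the same libraries. No collagen had a GC content between 44.3% and 47.4%. Of the 22 collagens of 45% or more, 18 were enriched in FC and 11 in CON, against 63.9% and 57.1% of all genes of that GC content. Of the 16 collagens below 45% none was enriched in either group, against 28.6% and 28.8% of such genes. Collagen bodies were also long, with a median of 109.7 kb against 15.6 kb.

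With each ratio set against the median of protein-coding genes of the same GC content, the collagen median was -0.35 in FC and -0.36 in CON, and that of all genes -0.03 and -0.02. The family thus lay below genes of equal GC content in both groups. By this measure Col6a2, a chain of the beaded filament collagen VI, was at -1.12 in FC and Col13a1 at -1.21, both from raw ratios near 0. The low-GC fibrillar genes Col5a2 (0.40 in FC, 0.66 in CON) and Col11a1 (0.39 and 0.66) changed sign to above 0 while their partners Col5a1 and Col11a2 were below it, and Col3a1 was at -0.19 and 0.31. Col8a1 stayed low, at -1.38 and -1.27. Col2a1 was at -0.23 (-0.52 to 0.06) in FC and -0.54 (-0.79 to -0.27) in CON. Its interval lay below the median of genes of its GC content in CON only.

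FC and CON were then compared within H4K5ac-ChIP, which is the question of the study's design. A gene was called where the density differed by at least 1.2-fold and the interval excluded equality. In the gene body 4 of 38 collagens were higher in FC, against 6.92% of all genes, and none was lower, against 2.35%. The median log2 ratio of FC over CON was 0.02 for the collagens and 0.04 for all genes, and the input medians were 0.55 and 0.32. Less the input ratio, 23 of 38 collagen bodies were called lower in FC, against 34.0% of all genes, so the reading of the family depends on the input. Without that subtraction 23 of the 38 were higher in FC by the point value and 15 lower. Of all genes, 8213 of 11687 with 45% GC or more and 3887 of 9594 below it were higher in FC by the point value.

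The 4 genes called were Col11a2, Col8a2, Col2a1 and Col27a1. Col11a2, a chain of the collagen XI of cartilage, rose from 0.565 to 0.737 RPKM, a log2 ratio of 0.38 (0.22 to 0.55). Col8a2, a chain of the collagen VIII of vessels and cornea, rose from 0.429 to 0.535 RPKM (0.32, 0.13 to 0.51), and Col27a1 from 0.568 to 0.685 RPKM (0.27, 0.19 to 0.35). The intervals of all 4 overlapped, so their order could not be told at this depth. The input libraries differed more, by 0.81 in Col11a2, 0.82 in Col8a2 and 0.68 in Col27a1. With the input ratio subtracted the values were -0.43, -0.50 and -0.41, and among genes of the same GC content they were 0.24, 0.19 and 0.15. Other settings also ended single calls. Col8a2 was not called with 1 read per position and strand (0.25), Col27a1 not with the median of all genes set to 0 (0.23), and Col11a2 not less the IgG-IP ratio (0.24, -0.13 to 0.61).

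At the other end were Col3a1 (-0.25, -0.52 to 0.02), Col28a1 (-0.22, -0.32 to -0.12) and Col5a2 (-0.22, -0.35 to -0.08), none of which reached 1.2-fold with an interval off 0. Col28a1 encodes a beaded filament collagen of peripheral nerve, and its densities were 0.24 RPKM in FC and 0.28 in CON. Input differed in the same direction, by -0.53 in Col3a1, -0.20 in Col28a1 and -0.70 in Col5a2. IgG-IP differed the other way in Col3a1 (0.35, 0.10 to 0.60) and Col5a2 (0.15, 0.01 to 0.30).

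**Figure D3:**
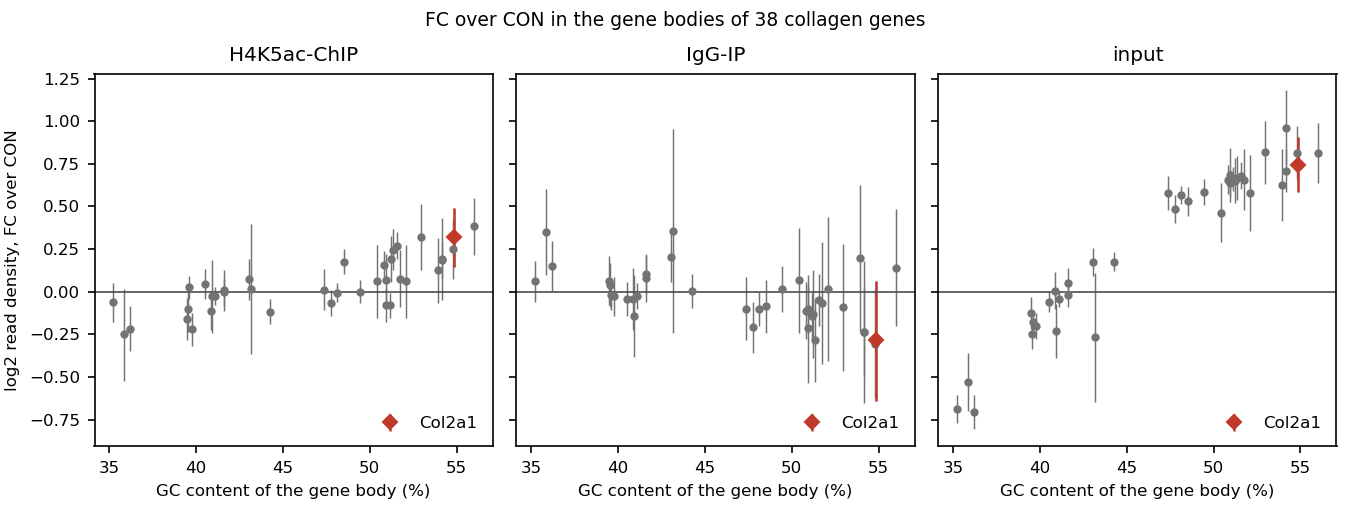
Log2 ratio of read density, FC over CON, in the gene bodies of the 38 collagens against GC content for H4K5ac-ChIP, IgG-IP and input, with 95% counting intervals and Col2a1 as a red diamond. The points rise with GC content in H4K5ac-ChIP and more steeply in input, and tend to fall in IgG-IP.

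The difference between the groups ran with GC content in the collagens. Spearman's rho of GC content with the log2 ratio of FC over CON was 0.80 for H4K5ac-ChIP, 0.93 for input and -0.50 for IgG-IP over the 38 genes, and 0.36, 0.80 and -0.12 over all genes. All 22 collagens of 45% GC or more had a higher input density in FC, with a median of 0.66. In H4K5ac-ChIP 18 of them were higher, with a median of 0.14. Of all 11687 tested genes of that GC content 10939 were higher in FC in input and 8213 in H4K5ac-ChIP, with medians of 0.54 and 0.10. Of the 16 GC-poor collagens 4 were higher in FC in input and 5 in H4K5ac-ChIP. Of all 9594 GC-poor genes 4327 were higher in FC in input and 3887 in H4K5ac-ChIP. All 4 called genes were among the GC-rich, of which 18.2% were called, against 9.83% of all genes of that GC content. The part of GC content in these differences was not tested beyond the matched values, under which 0 of 38 gene bodies were called higher in FC (3.75% of all genes).

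Promoters carried fewer reads and gave a partly different picture. By the 1.5-fold rule 14 of 38 collagen promoters were enriched over IgG-IP in FC, against 46.9% of all genes, and 9 in CON, against 43.6%, with 7 in both groups. The share of all promoters called in both groups was not counted. The median log2 ratio was 0.68 in FC and 0.48 in CON, and that of all promoters 0.96 and 0.79. The collagen family was therefore below the background in promoter calls and medians in both groups. The mean log2 ratio of the promoter followed that of the body with rho 0.47 over the collagens and 0.69 over all genes.

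The count exceeded 50 H4K5ac-ChIP reads in 8 of 38 collagen promoters in FC, against 37.58% of all genes, and in 10 in CON, against 42.33%. The CON library is deeper, and with reads scaled to the smaller library 8 promoters in FC and 6 in CON passed, against 37.58% and 34.57% of all genes, so the order of the groups turned for collagens and for all genes. Col9a3 held 73 and 75 reads, Col11a2 68 and 68, Col20a1 67 and 64 and Col6a2 61 and 63. The Col9a3, Col20a1 and Col11a2 promoters overlap another annotated gene (Ogfr, 9230112E08Rik and Rxrb), and their reads cannot be assigned to the collagen alone. Col8a1 alone had more than 50 reads in FC (52) and 40 or fewer in CON (38), a pattern of 1.048% of all genes.

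Between the groups 3 of 38 promoters were called higher in FC, against 6.78% of all genes, and 1 lower, against 2.46%. Col2a1 and Col14a1 shared the highest ratio, Col2a1 with 48 (FC) and 34 (CON) H4K5ac-ChIP reads, 9 and 13 IgG-IP reads and 38 and 22 input reads. Its log2 ratio was 0.68 (0.02 to 1.36) in H4K5ac-ChIP and 0.42 (-0.37 to 1.25) in input. Col14a1, a fibril-associated collagen, had the same 48 and 34 reads, with 19 and 11 in IgG-IP and 38 and 25 in input. Col8a1, with 52 and 38 reads (0.64, 0.01 to 1.28), had 5 and 11 in IgG-IP and 44 and 31 in input. All 3 intervals begin close to 0, that of Col2a1 included 0 in 7 of 9 alternative settings, and less the input ratio the promoters called higher were instead Col5a2 and Col19a1. Of the remaining promoters, Col13a1, with 28 and 20 reads (0.67, -0.21 to 1.58), was not called.

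Col18a1, whose product yields endostatin, was the only promoter called lower, and its interval included 0 in 4 of 9 alternative settings. It held 12 (FC) and 32 (CON) H4K5ac-ChIP reads, with 14 and 14 IgG-IP reads and 72 and 39 input reads. The log2 ratio was -1.23 (-2.32 to -0.23) in H4K5ac-ChIP and 0.52 in input, so the point values of H4K5ac-ChIP and input had opposite signs. The input value stands without its interval, and its difference from 0 is not claimed. The Col18a1 gene body was at 0.15 (0.07 to 0.24) in H4K5ac-ChIP and 0.66 in input, and less the input ratio it was among the bodies called lower in FC. Col24a1 (14 and 27 reads, -0.76, -1.81 to 0.22) and Col3a1 (17 and 32 reads, -0.73, -1.67 to 0.17) were next and were not called.

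**Figure D4:**
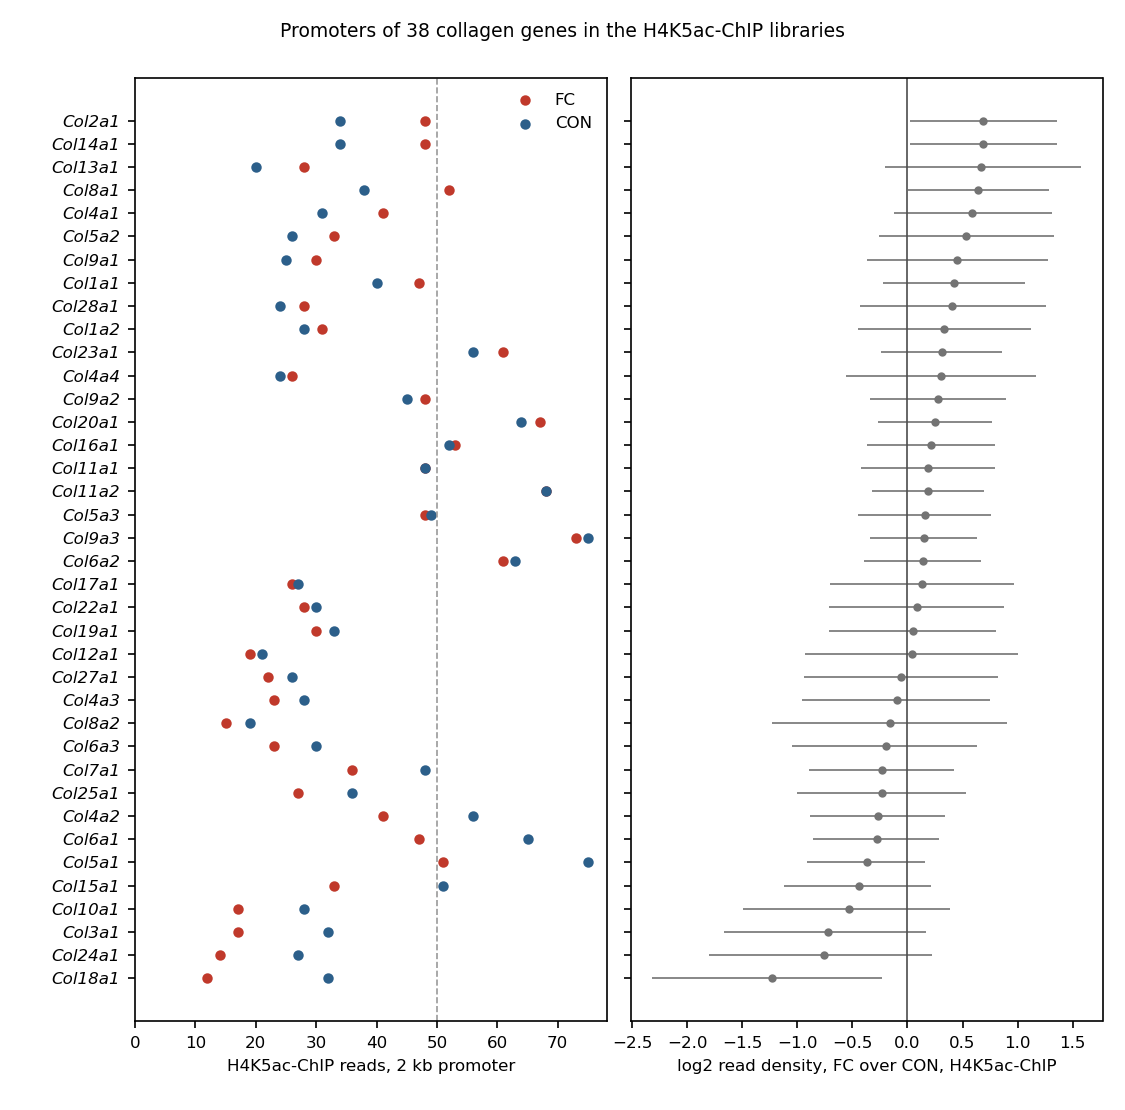
H4K5ac-ChIP reads in the 2 kb promoter of each collagen in FC (red) and CON (blue), with a dashed line at 50 reads, and the log2 ratio of read density, FC over CON, with its 95% counting interval. Col2a1 (48 and 34 reads) is at the top and Col18a1 (12 and 32 reads) at the bottom, and most intervals include 0.

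Upstream of the TSS the collagen profile was less raised than that of all genes. The mean H4K5ac-ChIP density within 2 kb upstream of the TSS was 1.18 times that at 3 to 5 kb upstream in FC and 1.15 times in CON, against 1.35 and 1.30 times over all genes. In IgG-IP the same quotient was 0.888 and 0.924 in collagens and 0.962 and 0.973 over all genes, also lower in collagens. Over the 2 kb downstream of the TSS the H4K5ac-ChIP quotient was 1.21 in FC and 1.15 in CON in collagens, against 1.22 and 1.14. Along the gene, the 1 kb window with the highest mean H4K5ac-ChIP density of FC and CON was taken, with 1 read kept per position and strand. It lay within 1 kb of an annotated transcript start in 4 of 38 collagens, while a mean of 10.3% of the windows lay that close. The FC and CON libraries shared their highest window in 7 of 38 collagens, among them Col15a1 and Col9a1. The share of all genes that do so was not counted, so this count has no background. Collagen bodies held from 7 (Col10a1) to 418 (Col25a1) windows. In Col15a1 the window lay at chr4:47241033-47242032, 20000 bp downstream of the TSS. It held 56 (FC) and 55 (CON) distinct H4K5ac-ChIP reads, 4 and 5 in IgG-IP and 35 and 17 in input. In Col9a1 the window at chr1:24236449-24237448 held 49 and 39 distinct reads against 4 and 11 in IgG-IP and 31 and 12 in input.

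**Figure D5:**
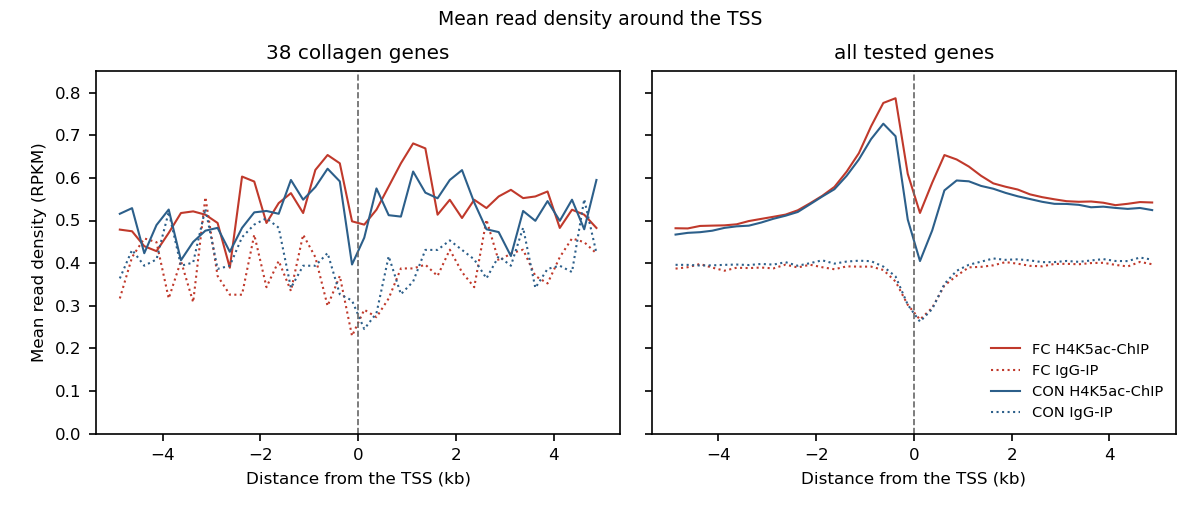
Mean read density (RPKM, 1 read per position and strand) in steps of 250 bp within 5 kb of the TSS over the 38 collagens and over all 21281 tested genes, for H4K5ac-ChIP (solid) and IgG-IP (dotted) in FC (red) and CON (blue). The summit upstream of the TSS reaches 0.654 in FC for collagens and 0.787 for all genes, and the profile of 38 genes is uneven.

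Exons and introns did not separate. The median log2 ratio of exon over intron density in collagens was 0.02 in the FC and 0.05 in the CON H4K5ac-ChIP library, and between -0.08 and 0.05 in the IgG-IP and input libraries. In the H4K5ac-ChIP libraries a median of 92.1% of the FC and 92.9% of the CON reads of a collagen body had a mapping score of at least 20, against 93.8% and 94.5% over all genes. In IgG-IP the medians were 91.7% and 92.9% against 91.3% and 92.5%, and in input 91.8% and 93.3% against 91.8% and 93.2%.

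Stacks of identical reads occurred in 2 long collagens. In an intron of Col19a1, chr1:24524551-24525100, the FC H4K5ac-ChIP library held 266 reads, of which 265 shared a position and strand, and the CON library 3. In an intron of Col24a1, chr3:145106301-145106850, the CON library held 88 reads, of which 86 shared a position and strand, and the FC library 1. With 1 read kept per position and strand the libraries had 2 and 3 reads in Col19a1 and 1 and 3 in Col24a1. Both stacks were called as regions when all deposited reads entered the scan and neither was called with distinct reads.

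Genes that make and read collagens were examined beside the family. Of 15 genes for the modification and folding of collagen chains, 12 bodies were enriched in FC and 10 in CON (48.0% and 44.4% of all genes), with medians of 1.06 and 0.69. Among genes of the same GC content those medians were 0.04 and 0.02. The highest means were those of Lepre1 (1.72 and 1.15), a prolyl hydroxylase, Ppib (1.37 and 1.43), a prolyl isomerase, and P4ha2 (1.31 and 1.13), a prolyl hydroxylase subunit. Of 14 genes for processing and cross-linking 7 were enriched in FC and 6 in CON, led by Bmp1 (1.21 and 0.84), which cleaves procollagen, Sparc (1.198 and 0.81) and Pcolce (1.08 and 0.90). Of 7 collagen receptors 4 were enriched in each group, led by the kinase Ddr1 (1.57 and 1.25) and the integrins Itga11 (1.13 and 0.85) and Itga10 (0.97 and 0.62). With GC matching the list medians were -0.20 and -0.20 for processing and cross-linking and 0.08 and -0.07 for the receptors, and Pcolce was at -0.34 and -0.22. None of these bodies was called higher in FC (6.92% of all genes), and Loxl2 (-0.40) and Itga2 (-0.34) were called lower (2.35%). The promoters of Itga11 (1.07) and Ddr1 (0.44) were called higher (6.78%).

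Marker genes of cell types and of other organs were counted in the same way. Against 48.0% of all genes in FC and 44.4% in CON, 7 and 5 of 9 neuronal marker bodies were enriched, with the highest means in Camk2a (1.31 and 1.03), Rbfox3 (1.25 and 0.95) and Slc17a7 (1.21 and 0.92). The counts were 3 and 4 of 5 astrocyte markers, among them Gfap, Aldh1l1 and Slc1a3, and 4 and 3 of 8 endothelial and mural markers, near the share of all genes. Of the latter Cspg4 and Pecam1 were enriched, and Cldn5, whose mean was also high (0.97 and 1.54), was not. They were 1 and 1 of 6 fibroblast and meningeal markers, with Fmod (1.40 and 1.42) above Ogn and Lum, and 2 and 3 of 6 cartilage markers, with Comp (1.29 and 1.30) above Sox9 and Matn1. Of 6 markers of other organs 2 were enriched in FC, Apoa1 (0.99 and 1.13) and Myh6 (0.98 and 0.58), and Apoa1 alone in CON, while Krt5 (0.21 and -0.48), the next by mean, was not, so a call over IgG-IP was also made at genes best known from other organs. With GC matching the list medians were 0.18 in FC and 0.01 in CON for neuronal markers, -0.10 and 0.18 for astrocyte, -0.24 and -0.08 for endothelial and mural, -0.36 and 0.29 for fibroblast and meningeal, -0.36 and -0.11 for cartilage and -0.83 and -0.73 for other organ markers. Single markers changed sign too, Slc17a7 to -0.10 and -0.12 and Apoa1 to -0.45 and -0.08 in FC and CON, and Comp to -0.15 in FC. Between the groups the body of Prox1 (0.35) was called higher in FC (6.92% of all genes). The bodies of Rgs5 (-0.29) and Dcn (-0.47) were called lower (2.35%). The promoters of Camk2a (0.61), Aqp4 (0.74), Fmod (1.19) and Ins2 (0.82) were called higher (6.78%).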

How the data were processed

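The authors mapped 50-bp SOLiD reads with Bioscope against mm9, and the deposited files hold 1 record per aligned read, whose score is the mapping quality (4 to 100) and not a count. Library depth ranged from 14549689 (FC IgG-IP) to 45673239 (FC input) reads, with 31605738 and 35962226 in the FC and CON H4K5ac-ChIP libraries. Over the 6 libraries 11.5% to 17.8% of reads repeated a position and strand.

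GENCODE gene models of that build were used. A read was counted in each interval it overlapped by 1 bp or more, and densities were scaled by total reads. Ratios have exact (Clopper-Pearson) 95% intervals for counting error. Reads are not independent molecules. For GC matching, the median over genes of the same GC content, in steps of 1%, was subtracted. Regions were called by a scan that took the window, genome size and p threshold of the study's MACS run, without its m-fold setting. MACS itself was not run. Distinct reads were shifted by 75 bp, a value the study does not state. They were set against the larger of the genome-wide and the local 1, 5 and 10 kb rates. The scan called 1107 regions higher in FC and 793 higher in CON, more than the study reports. The ratio with its interval, the calls of higher density and the region scan were tested on simulated counts, and the other steps were not. The analyses used Python 3.11.15, NumPy 2.4.6 and SciPy 1.17.1.

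Percentages of promoters by read count are given to 4 digits. The members and the lists were chosen with earlier results of these data known. Named were Col2a1, the 5 highest and 5 lowest body means over IgG-IP, the 3 highest and 3 lowest ratios of FC over CON in body and promoter, members with a region, the collagen IV pairs and the 3 highest genes of each other list. Others were named after their values were seen, as partner chains or examples of a class. Mia3 was not matched and not analysed here.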

Additional observations from a re-analysis of the deposited data

How the results depend on the processing

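Results were recomputed under 190 combinations of result and alternative setting, of which 144 stayed within the main interval or within 1.5 times the main count. A count that stayed can hold other genes. The value changed sign in 12. Shares of all genes under the same setting stand in parentheses beside counts. With GC-matched scaling the enriched bodies were 0 in FC (12.1%) and 2 in CON (11.2%) and the enriched promoters 2 (11.6%) and 2 (12.2%). The bodies called higher in FC were then 0 (3.75%), and the promoters 0 higher (3.78%) and 2 lower (3.93%). Col2a1 over IgG-IP became -0.23 (body, FC), -0.54 (body, CON), -0.19 (promoter, FC) and -0.93 (promoter, CON). Without GC matching, the last was -0.29 over 5 kb. With input as the control 0 bodies were enriched in FC (20.5%) and 8 in CON (38.3%), and Col2a1 was at -0.23 and 0.19. At 2-fold 8 bodies were enriched in FC (29.3%) and 2 in CON (21.9%), and at 1.5-fold 0 were higher in FC (2.00%).

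Less the input ratio, 2 bodies were higher in FC (6.82%) and 23 lower (34.0%), and 8 promoters lower (11.6%). The values were -0.43 in Col2a1, -0.43 in Col11a2, -0.41 in Col27a1 and -0.50 in Col8a2. Less the IgG-IP ratio, 8 bodies were higher (10.4%) and 2 lower (2.61%), Col2a1 was at 0.60 and the Col14a1 promoter at -0.29. Median scaling gave 1 body lower (3.85%) and 0 promoters higher (4.08%), and a mapping score of at least 20 gave 1 body lower (2.37%). With distinct reads 1 promoter was higher (4.09%) and 0 lower (1.31%), and 4 promoters in FC (26.6%) and 6 in CON (34.0%) held more than 50 reads. Within 1 kb of the TSS 5 promoters were higher (10.9%) and 0 lower (1.56%). Over 5 kb, 32 (74.5%) and 33 (77.0%) promoters held more than 50 reads, and Col8a1 was at -0.17. Scaled to the smaller library, 6 CON promoters did (34.6%). At a p of 1e-07, 1 member had a region higher in FC (0.367%). With all deposited reads 14 had one higher in FC (20.5%) and 5 one higher in CON (10.8%), and Col17a1 was among the latter and no longer among the former. The cause of these changes was not tested. No paired analysis was possible because each group and antibody has 1 library. The Col2a1 promoter ratio ran from 0.26 to 1.03 over 9 alternatives, and its interval included 0 in 7 of them, which ends the call. The interval included 0 in 6 of 9 for Col8a1, 6 of 9 for Col14a1 and 4 of 9 for Col18a1. With 12 to 75 reads in a promoter, intervals were wide.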
